A study of Mus musculus with 36 samples.

Results

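The comparison described here set livers of mice on a high fat diet against livers of mice on normal chow at ZT8, late in the daytime rest phase of mice. ZT, Zeitgeber time, is the number of hours since the lights came on, and lights were on for 12 h. The members are the 6 samples, of 36 in the series, whose labels give ZT8 with either diet: 3 high fat diet livers and 3 chow livers. The high fat diet group was C57BL/6J mice, 16 weeks old, that had eaten a diet with 60% of its energy from fat, with free access, for 10 weeks before harvest at ZT8. The chow group was C57BL/6J mice of the same age with free access to normal chow, harvested at the same time. Neither the sex of the mice nor the composition of the chow is stated, and the labels give no genetic or drug treatment for any group. The other 30 arrays hold the same pair of diets at ZT0, ZT4, ZT12, ZT16 and ZT20, with 3 arrays per diet and time. The series asks how gene expression in liver over the day differs between the diets.

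The liver follows the feeding day. During the rest phase a mouse on chow eats little, and its liver turns towards glycogen breakdown, glucose output and fat oxidation, while a core clock of transcription factors (activators Clock and Arntl, repressors of the Per, Cry and REV-ERB families) runs in most of its cells. The liver also clears foreign compounds through cytochrome P450 enzymes, whose genes are switched on by the nuclear receptors CAR and PXR, and through conjugation, much of it to glutathione. Cholesterol synthesis is driven by SREBP2 when sterols run low, and fatty acid synthesis by SREBP1c after feeding.

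RNA was measured on whole-transcript Affymetrix arrays, and all levels below are log2(intensity + 16) of 1 probe set per gene. Levels are given for arrays 1, 2 and 3 of each diet, and a difference is high fat diet minus chow on that scale, with the standard error (SE) of a limma fit. A gene passed when its Benjamini-Hochberg adjusted p was under 0.05 over 13956 genes. On this scale the change of a dim probe set comes out too small. The median intensity of the ZT8 arrays lay between 81.6 and 87.0, and arrays of the same diet correlated at 0.984 to 0.992 over genes. The liver genes Alb, Apoa1, Ttr and Cps1 lay at 13.0 to 13.7 in all 6 arrays, against a median of 6.65 over all probe sets of these arrays. Over all 36 arrays the Y-linked genes Eif2s3y, Kdm5d and Uty lay between 8.04 and 9.49 and Xist, transcribed from the inactive X chromosome, between 4.53 and 5.52. The labels do not state that the 3 samples of a group came from separate animals, so the p-values rest on the spread between samples, which may be technical.

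At ZT8, 108 of 13956 genes passed (0.774%), 39 higher (0.279%) and 69 lower (0.494%) in high fat diet livers than in chow livers. The median size of the passing differences was 0.62, and over all genes it was 0.092. Of the 108 genes, 8 rose and 10 fell by 2-fold or more. In 107 of them all 3 high fat diet arrays lay outside the range of the 3 chow arrays, and in Slc25a25 the groups overlapped. Over all genes the high fat diet arrays all lay above the chow arrays in 7.08% and all below in 7.39%. At an unadjusted p under 0.05, 1313 genes differed. The count depended on single arrays: it was 54 without high fat diet array 1, 56 without chow array 2, 68 without high fat diet array 2 and 70 without chow array 3. With a weight estimated per array it was 1716 (594 higher, 1122 lower), and the cause of that rise was not tested.

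Of the 10 genes that fell by 2-fold or more, 5 are cytochrome P450 genes of drug and toxin clearance, among them the 3 that fell furthest. Cyp2b10, the classical CAR target, measured 5.13, 4.80 and 4.71 in high fat diet livers, against 7.95, 8.65 and 7.40 in chow livers. All 3 high fat diet arrays were far below the lowest chow array, and the difference was −3.12 ± 0.34 (SE, n = 3 per diet, adjusted p = 1.84e-06). Cyp2c55, another CAR and PXR target, measured 5.67, 5.40 and 5.68 in high fat diet livers and 7.88, 8.52 and 8.49 in chow livers. Its difference of −2.71 ± 0.17 had the smallest adjusted p at ZT8 (3.34e-12). Cyp3a44, a P450 of the PXR-regulated Cyp3a family, measured 7.87, 7.32 and 7.85 in high fat diet livers and 10.28, 10.41 and 10.13 in chow livers, a difference of −2.60 ± 0.28 (adjusted p = 1.84e-06). Its groups lay more than 2 log2 units apart and each was tight. In Cyp2b10 and Cyp2c55 the high fat diet levels lay under 6.11, the level a gene's mean had to exceed to be tested, so these genes were tested through their chow levels and the size of their fall is uncertain. The Cyp2b10 difference lay between −4.08 and −1.98 over the alternatives. Members of the Cyp2b, Cyp2c and Cyp3a families are close in sequence, and how much signal their probe sets share was not tested.

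The start regions of 4 genes are shown, those of Cyp2b10 and Cyp3a44 as genes that fell at every time, and those of G6pc and Mtnr1a for their place among the rises at ZT8 and among the genes that set ZT8 apart. The window of Cyp2c55, which also fell at every time, held none of the motifs and is not printed. They come from RefSeq on GRCm38.p6, from 250 bases before to 50 bases after the annotated start, read 5′ to 3′ on the gene's strand. Capitals mark the letters found of 5 motifs searched on both strands: the clock E-box (CACGTG), the D-box bound by Hlf and its relatives (TTATGNAA), the antioxidant response element (TGACNNNGC), a sterol response element (TCACNCCAC) and the hexamer of nuclear receptors (AGGTCA). Cyp2b10, at chr7:25897408-25897707 on the plus strand, held a D-box and a sterol element in these letters. Cyp3a44, at chr5:145805825-145806124 on the minus strand, held a nuclear receptor hexamer. G6pc, at chr11:101367466-101367765 on the plus strand, held an antioxidant element and a nuclear receptor hexamer, and Mtnr1a, at chr8:45068857-45069156 on the plus strand, held an E-box. The windows of Ugdh and Hmgcs1 were marked as well and are not printed. Ugdh held antioxidant elements, and Hmgcs1 a sterol element and a nuclear receptor hexamer.
Cyp2b10: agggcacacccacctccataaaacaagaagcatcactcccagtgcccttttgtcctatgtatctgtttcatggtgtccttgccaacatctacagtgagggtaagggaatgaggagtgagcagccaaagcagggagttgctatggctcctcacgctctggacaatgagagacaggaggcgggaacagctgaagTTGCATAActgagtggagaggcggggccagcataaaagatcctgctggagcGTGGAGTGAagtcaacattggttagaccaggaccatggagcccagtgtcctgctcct
Cyp3a44: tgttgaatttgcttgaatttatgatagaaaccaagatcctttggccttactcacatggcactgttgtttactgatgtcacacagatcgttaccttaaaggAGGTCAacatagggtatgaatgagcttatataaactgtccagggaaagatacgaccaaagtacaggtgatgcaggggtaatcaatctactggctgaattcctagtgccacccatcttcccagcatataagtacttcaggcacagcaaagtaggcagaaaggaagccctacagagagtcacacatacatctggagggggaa
G6pc: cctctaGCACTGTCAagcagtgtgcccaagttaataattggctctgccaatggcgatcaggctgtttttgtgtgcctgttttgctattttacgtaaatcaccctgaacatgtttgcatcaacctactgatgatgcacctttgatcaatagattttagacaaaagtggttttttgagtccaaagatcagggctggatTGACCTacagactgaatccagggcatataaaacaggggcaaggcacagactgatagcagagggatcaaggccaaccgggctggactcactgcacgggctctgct
Mtnr1a: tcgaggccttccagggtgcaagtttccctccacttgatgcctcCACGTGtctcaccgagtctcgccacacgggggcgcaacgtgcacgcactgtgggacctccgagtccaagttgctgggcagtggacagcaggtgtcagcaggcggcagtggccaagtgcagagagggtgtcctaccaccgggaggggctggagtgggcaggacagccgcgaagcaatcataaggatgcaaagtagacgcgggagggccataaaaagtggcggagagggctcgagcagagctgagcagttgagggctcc
Over the genes with such a window, the nuclear receptor hexamer was present in 5 of 29 genes that rose (17.2%), 10 of 56 that fell (17.9%) and 15.8% of 11085 tested genes. The E-box was present in 3 of 29 genes that rose (10.3%), 3 of 56 that fell (5.36%) and 11.2% of all. The antioxidant element was present in 4 of 29 (13.8%), 10 of 56 (17.9%) and 16.5% of all, and the D-box in 1 of 29 (3.45%), 3 of 56 (5.36%) and 2.86% of all. The sterol element was present in 0 of 29 genes that rose, 2 of 56 that fell (3.57%) and 1.45% of all. These letters are descriptions of the windows and not binding sites, and they may overlap one another.

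Of 22 tested CAR and PXR targets, 9 fell and 0 rose, with a median difference of −0.36, against a median of 0.00 over all genes. The share of all genes that fell at ZT8 was 0.494%, and 0.279% rose. Besides the 3 above, Cyp3a16 measured 6.46, 6.40 and 6.51 in high fat diet livers and 7.90, 8.14 and 7.93 in chow livers, a difference of −1.54 ± 0.23 (adjusted p = 2.73e-04). Cyp3a11, the main hepatic Cyp3a enzyme of the mouse, measured 11.65, 11.32 and 11.47 in high fat diet livers and 12.61, 12.75 and 12.51 in chow livers (−1.14 ± 0.18, adjusted p = 4.97e-04). Ces2a, a carboxylesterase that hydrolyses ester drugs and lipids, measured 10.05, 10.23 and 9.78 in high fat diet livers and 10.99, 10.97 and 11.07 in chow livers (−0.99 ± 0.13, adjusted p = 5e-05). In each of these genes the groups were well apart. Cyp2c29 fell by 0.94 ± 0.15 (adjusted p = 4.9e-04). The receptors were not among the genes that passed: Nr1i3, which encodes CAR, differed by 0.41 (adjusted p = 0.236) and Nr1i2, which encodes PXR, by 0.15 (adjusted p = 0.707). Both were looked at outside the rule for named genes. Cyp2b9, a second Cyp2b gene, differed widely between arrays, with 8.02, 5.84 and 7.90 in high fat diet livers and 4.85, 8.01 and 5.29 in chow livers. Its groups overlapped and it did not pass (adjusted p = 0.753), although its mean difference was 1.20.

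Conjugation genes fell as well. In the list of glutathione and NRF2 target genes 27 were tested and 7 of them fell, with 0 that rose and a median of −0.18, and all 7 take part in glutathione use or recycling. Over all genes 0.494% fell and 0.279% rose at ZT8. Members of this list also fell at the other times, 7 at ZT0, 3 at ZT4, 5 at ZT12, 4 at ZT16 and 5 at ZT20. In the other direction 2 rose at ZT0 and 1 at ZT4. Gstm4, a glutathione transferase, measured 10.09, 9.80 and 10.06 in high fat diet livers and 10.76, 10.84 and 11.14 in chow livers, a difference of −0.93 ± 0.14 (adjusted p = 4.9e-04). Gstt2 measured 9.06, 9.14 and 8.70 in high fat diet livers and 9.78, 9.73 and 10.07 in chow livers (−0.90 ± 0.14, adjusted p = 4.9e-04). Gsta4, which detoxifies lipid peroxidation products, measured 9.98, 9.35 and 9.66 in high fat diet livers and 10.43, 10.60 and 10.54 in chow livers (−0.86 ± 0.16, adjusted p = 0.00284). Gstm3 measured 11.57, 10.81 and 11.46 in high fat diet livers and 11.88, 12.14 and 12.26 in chow livers (−0.81 ± 0.15, adjusted p = 0.00284). The groups of these 4 transferases did not overlap, and high fat diet array 2 was the lowest for Gsta4 and Gstm3, which no longer passed without it. The Gstm genes are near copies, so their probe sets may share signal. Osgin1, an NRF2-induced growth inhibitor outside that list, measured 9.56, 10.14 and 9.36 in high fat diet livers and 10.20, 10.80 and 11.04 in chow livers. Its difference was −0.99 ± 0.23 (adjusted p = 0.0334), and it did not pass without high fat diet array 1 or 3 or without chow array 2 or 3.

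Several metabolic enzymes and carriers outside those lists fell by large amounts. Csad, an enzyme on the route from cysteine to taurine, measured 8.38, 9.15 and 8.27 in high fat diet livers and 10.36, 9.95 and 11.10 in chow livers. The groups were apart although each spread widely, and the difference was −1.87 ± 0.30 (adjusted p = 5.79e-04). Csad was the single gene to pass of 36 tested genes of amino acid and one-carbon metabolism, while 0.774% of all genes passed. Cyp26a1, which breaks down retinoic acid, measured 5.95, 5.72 and 5.53 in high fat diet livers and 7.85, 8.02 and 7.52 in chow livers (−2.06 ± 0.46, adjusted p = 0.0216). Leaving out any ZT8 array other than chow array 3 ended that call. Slc13a2, a carrier of citrate and related acids, measured 5.74, 5.75 and 5.57 in high fat diet livers and 7.39, 7.03 and 7.28 in chow livers (−1.55 ± 0.21, adjusted p = 5.78e-05). For Cyp26a1 and Slc13a2, too, the high fat diet levels lay under 6.11. Smad9, a mediator of BMP signals, fell by 0.94 ± 0.17 (adjusted p = 0.00284). The unnamed transcripts 9130409I23Rik and Gm15998 fell by 1.59 ± 0.25 and 1.13 ± 0.24, and the second did not pass without high fat diet array 1 or without chow array 2 or 3.

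The genes that rose furthest include several of lipid handling. Mfsd2a, a lysolipid transporter, measured 11.35, 10.32 and 11.45 in high fat diet livers and 9.26, 9.03 and 9.52 in chow livers. Its difference was 1.77 ± 0.43, a 3.40-fold higher value, but the spread was large (adjusted p = 0.0414) and the call ended on leaving out any ZT8 array other than high fat diet array 2. Stap1, an adaptor protein first described in immune cells, measured 7.69, 6.95 and 8.27 in high fat diet livers and 5.65, 6.17 and 5.80 in chow livers (1.77 ± 0.33, adjusted p = 0.00349). The chow levels of Stap1 at ZT8 lay near or under 6.11, the level a gene's mean had to exceed to be tested. The size of its rise is thus uncertain, and it lay between 1.23 and 2.11 over the alternatives. G0s2, an inhibitor of the lipase Pnpla2, measured 9.69, 8.76 and 9.18 in high fat diet livers and 7.98, 7.25 and 8.09 in chow livers (1.44 ± 0.31, adjusted p = 0.0169), and did not pass without high fat diet array 1 or chow array 2. Apoa4, a lipoprotein component that rises with fat in the liver, measured 11.37, 11.48 and 11.62 in high fat diet livers and 10.19, 10.40 and 10.26 in chow livers. Its groups were tight and apart by 1.21 ± 0.25 (adjusted p = 0.00997), and it did not pass without high fat diet array 3. Fabp2, a fatty acid binding protein best known from the intestine, measured 10.63, 10.30 and 10.62 in high fat diet livers and 9.68, 9.62 and 9.45 in chow livers (0.94 ± 0.14, adjusted p = 4.9e-04).

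Of 21 tested lipid droplet and PPARG target genes, 4 rose and 0 fell, with a median of 0.04 whose sign turned with median centring. Over all genes 0.279% rose at ZT8. At the other times 3 members rose at ZT0, 8 at ZT4, 9 at ZT12, 3 at ZT16 and 6 at ZT20, and 1 fell at ZT0 and 1 at ZT12. The 4 that rose at ZT8 were G0s2, Apoa4, Fabp2 and the monoglyceride lipase Mgll. Mgll rose by 0.46 ± 0.11 (adjusted p = 0.0450) and did not pass without any 1 of 5 of the 6 arrays, chow array 3 being the exception. The droplet coat gene Plin2 measured 11.45, 11.17 and 11.47 in high fat diet livers and 11.09, 11.13 and 11.25 in chow livers, overlapping, with a difference of 0.21 (adjusted p = 0.564). In fatty acid oxidation, 1 of 40 tested PPARA targets rose and 0 fell, with a median of 0.09. The gene was Bdh1, the mitochondrial enzyme that interconverts ketone bodies, with 11.07, 10.89 and 11.02 in high fat diet livers and 10.57, 10.65 and 10.51 in chow livers (0.42 ± 0.09, adjusted p = 0.0189). Its call ended without high fat diet array 1 or 3 and without chow array 1 or 3. Cpt1a, the gate of mitochondrial fatty acid import, measured 12.05, 11.92 and 11.99 in high fat diet livers and 11.77, 11.76 and 11.85 in chow livers, and its difference of 0.20 did not pass (adjusted p = 0.439).

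Other transporters, receptors and secreted proteins rose. Slc22a7, an organic anion transporter, measured 9.85, 10.05 and 9.49 in high fat diet livers and 8.40, 8.76 and 8.64 in chow livers (1.19 ± 0.26, adjusted p = 0.0138). Gna14, a G protein subunit, measured 8.43, 8.32 and 8.61 in high fat diet livers and 7.17, 7.33 and 7.29 in chow livers (1.19 ± 0.22, adjusted p = 0.00284). Both pairs of groups were apart, and Slc22a7 lost its call without high fat diet array 1 or 2 or without chow array 1 or 3. Gpc1, a cell surface heparan sulfate proteoglycan, rose by 0.93 ± 0.17 (adjusted p = 0.00284). Tsc22d1, a transcription regulator, rose by 0.93 ± 0.20 (adjusted p = 0.0165), but not without high fat diet array 1 or 2 or without chow array 1 or 3. Inhbe, a secreted protein of the activin family made in liver, rose by 0.87 ± 0.21 (adjusted p = 0.0394), and leaving out any ZT8 array other than chow array 3 ended the call.

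**Figure D1:**
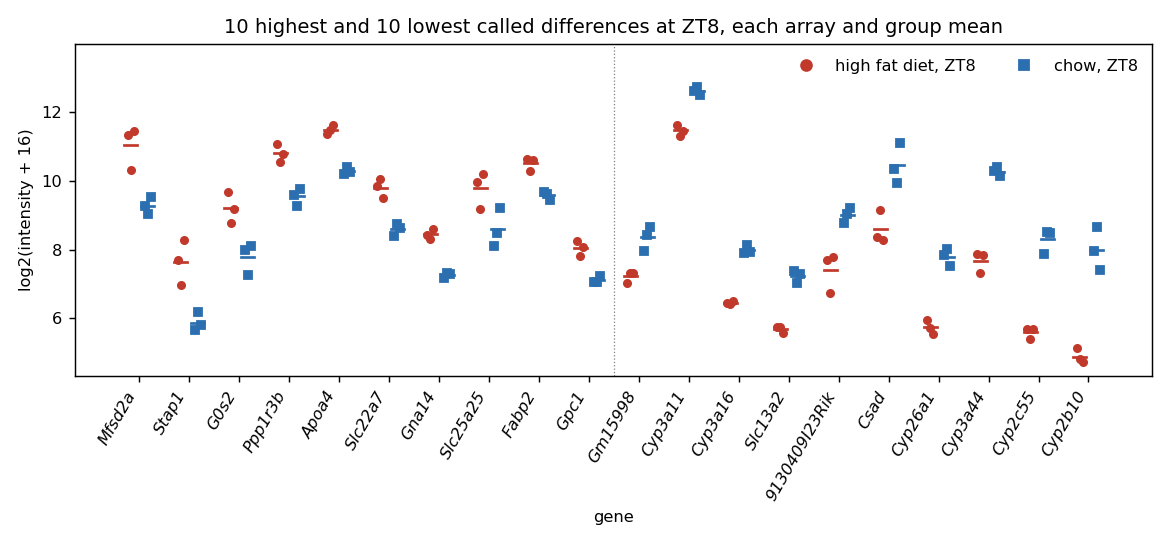
Level of the most changed genes on each ZT8 array, as log2(intensity + 16), with high fat diet arrays beside chow arrays. Every point is 1 array, and in Cyp2b10, Cyp2c55 and Cyp3a44 all 3 high fat diet arrays lie far below all 3 chow arrays.

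Glucose genes gave few calls, but 1 of them had the smallest adjusted p of all genes that rose. Ppp1r3b, which brings protein phosphatase 1 to glycogen and favours glycogen storage, measured 11.08, 10.56 and 10.80 in high fat diet livers and 9.60, 9.28 and 9.77 in chow livers. The lowest high fat diet array lay above the highest chow array, and the difference was 1.26 ± 0.16, a 2.39-fold higher value (adjusted p = 1.83e-05). It was the single gene to pass of 16 glycogen genes, whose median was −0.01, while 0.774% of all genes passed at ZT8. G6pc, the glucose-6-phosphatase that lets the liver release glucose, measured 12.63, 12.05 and 12.87 in high fat diet livers and 11.56, 11.40 and 12.01 in chow livers (0.86 ± 0.14, adjusted p = 8.39e-04). Its groups were apart by a narrow gap, and it was the single gene to pass of 17 gluconeogenesis genes. It did not pass when only the 6 ZT8 arrays were fitted. Tsc22d3, a glucocorticoid-induced leucine zipper protein, measured 9.27, 9.42 and 9.15 in high fat diet livers and 8.64, 8.14 and 8.71 in chow livers (0.78 ± 0.14, adjusted p = 0.00284). It was the single gene to pass of 21 glucocorticoid receptor targets, and it did not pass without chow array 2. Slc25a25, a mitochondrial ATP-Mg carrier, measured 9.98, 9.18 and 10.19 in high fat diet livers and 8.10, 8.49 and 9.20 in chow livers. The groups overlapped, and its difference of 1.19 ± 0.29 (adjusted p = 0.0447) no longer passed without high fat diet array 1 or 3 or without chow array 1 or 2. None of 15 genes of glycolysis and fructose entry passed in limma, and 1 had an unadjusted p under 0.05.

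Among genes of fatty acid and sterol synthesis 2 passed, with opposite signs. Of 30 tested fatty acid and triglyceride synthesis genes, 1 rose and 1 fell, with a median of 0.07. Among all genes 0.279% rose and 0.494% fell at ZT8. Srebf1, which encodes SREBP1, measured 11.11, 10.80 and 10.88 in high fat diet livers and 10.22, 10.33 and 10.16 in chow livers (0.69 ± 0.14, adjusted p = 0.00916), and did not pass without high fat diet array 1 or chow array 3. Elovl3, which elongates long-chain fatty acids, measured 10.37, 10.33 and 10.66 in high fat diet livers and 10.96, 11.41 and 11.55 in chow livers. Its groups were apart, with the high fat diet livers lower (−0.85 ± 0.15, adjusted p = 0.00136). None of 21 cholesterol synthesis genes passed in limma, although 16 had an unadjusted p under 0.05 with a negative difference. Of all 13956 genes, 790 had such a p with a negative difference. All 21 differences were negative, between −0.68 and −0.08, and their median was −0.43. In 17 of the 21 all high fat diet arrays lay below all chow arrays, as they did in 7.39% of all genes. Fdft1, squalene synthase, measured 10.94, 10.95 and 11.08 in high fat diet livers and 11.44, 11.57 and 11.52 in chow livers (−0.52 ± 0.15, adjusted p = 0.121). Tm7sf2, a sterol reductase, measured 10.60, 10.37 and 10.66 in high fat diet livers and 11.09, 11.01 and 11.16 in chow livers (−0.54 ± 0.16, adjusted p = 0.119). The list's median deviation from each gene's chow mean at ZT8 was −0.52, −0.43 and −0.38 in the high fat diet arrays, set against 0.07, −0.02 and −0.05 in the chow arrays. The median differences at the other times were −0.25 at ZT0, 0.01 at ZT4, −0.09 at ZT12, −0.32 at ZT16 and −0.14 at ZT20. Genes of this list passed as lower at ZT0 (3 genes), ZT12 (1) and ZT16 (2), against 0 at ZT8, and none passed in the test of ZT8 against the mean of the other times.

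In the clock, 1 of 13 tested core genes passed, while 0.774% of all genes passed at ZT8. Per2, a repressor of Clock and Arntl, measured 9.10, 9.12 and 9.11 in high fat diet livers and 8.53, 8.36 and 8.50 in chow livers. Both groups were tight and the difference was 0.65 ± 0.13 (adjusted p = 0.00850), a call that ended without chow array 2. Nr1d1, the REV-ERBα repressor, measured 9.96, 10.21 and 9.89 in high fat diet livers and 10.83, 10.49 and 10.96 in chow livers. Its groups were apart, but the difference of −0.74 ± 0.26 did not pass (adjusted p = 0.265). Bhlhe41, another repressor, differed by −0.57 (adjusted p = 0.124) and the repressor Cry1 by 0.33 (adjusted p = 0.318). Clock, Rora and Nr1d2 differed by −0.19, −0.14 and −0.20 with groups that did not overlap, and none passed. Arntl, Per1, Per3, Cry2, Ciart and Bhlhe40 overlapped between the diets, with differences between −0.30 and 0.41, and the signs for Arntl, Per3 and Cry2 turned in an alternative. Of 15 clock output genes 1 rose, Hlf, a D-box activator, with 9.47, 9.55 and 9.61 in high fat diet livers and 9.15, 9.06 and 9.23 in chow livers (0.40 ± 0.10, adjusted p = 0.0377). Leaving out any 1 of the 6 arrays ended the call of Hlf.

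Interferon-stimulated genes had a median difference of 0.24, with 22 of 24 differences positive, against 7177 of 13956 over all genes. Of these, 1 rose and 0 fell: Ifi27, an interferon-induced membrane protein, measured 10.42, 10.82 and 10.32 in high fat diet livers and 9.53, 9.51 and 9.86 in chow livers (0.88 ± 0.14, adjusted p = 5.43e-04). Of 34 ribosomal protein genes and 43 ribosome biogenesis genes 0 passed in limma, with 1 and 5 at an unadjusted p under 0.05 and medians of −0.05 and 0.02. Of 23 sex-biased liver genes 3 fell and 0 rose, while 0.494% of all genes fell and 0.279% rose at ZT8. The 3 were Cyp3a44 and Cyp3a16, female-biased in mice, and Elovl3, male-biased.

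Markers of other liver cells were set beside these results, since in whole liver fewer cells of a type and less RNA per cell cannot be told apart. In 13 marker lists, the sex check genes included, 0 members passed in limma, and 5 or fewer of any list had an unadjusted p under 0.05. The 17 Kupffer cell and macrophage markers had a median difference of 0.12, and their mean level lay at 8.21 to 8.48 in high fat diet livers and 7.67 to 8.49 in chow livers. The median deviation from the chow mean was −0.50 in chow array 1, the lowest, and 0.34 in high fat diet array 3, the highest. The macrophage gene Mpeg1 measured 9.42, 9.45 and 9.42 in high fat diet livers and 8.59, 8.87 and 8.80 in chow livers (0.68 ± 0.18, adjusted p = 0.0628), and passed in 4 of 19 alternatives. All 15 sinusoidal endothelial markers had negative differences, with a median of −0.28 and mean levels of 8.33 to 8.91 in high fat diet livers and 8.62 to 9.12 in chow livers. High fat diet array 2 (median deviation −0.58) and chow array 1 (−0.33) were the lowest, so the groups overlapped in every marker. The medians of this list at the other times lay between −0.09 and 0.21. The 14 hepatocyte markers had a median of 0.02, with mean levels of 11.98 to 12.08 in high fat diet livers and 11.94 to 12.06 in chow livers. The part of endothelial or macrophage RNA in the other results was not tested.

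ZT8 had the fewest passing genes of the 6 times. Beside 108 at ZT8, 993 genes passed at ZT0 (7.12%), 515 at ZT4 (3.69%), 759 at ZT12 (5.44%), 310 at ZT16 (2.22%) and 285 at ZT20 (2.04%). The share of passing genes that were higher on high fat diet was 36.1% at ZT8 and between 45.5% and 61.9% at the other times. The median size of a difference over all genes was 0.092 at ZT8, against 0.096 to 0.133 at the other times, and the median SD within a group was 0.117 in high fat diet livers and 0.110 in chow livers at ZT8, with 0.0962 to 0.129 and 0.0935 to 0.134 at the other times. This order was not tested. It held on leaving out each ZT8 array, but with array weights ZT8 had the most genes of the 6 times, and the cause was not tested.

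**Figure D2:**
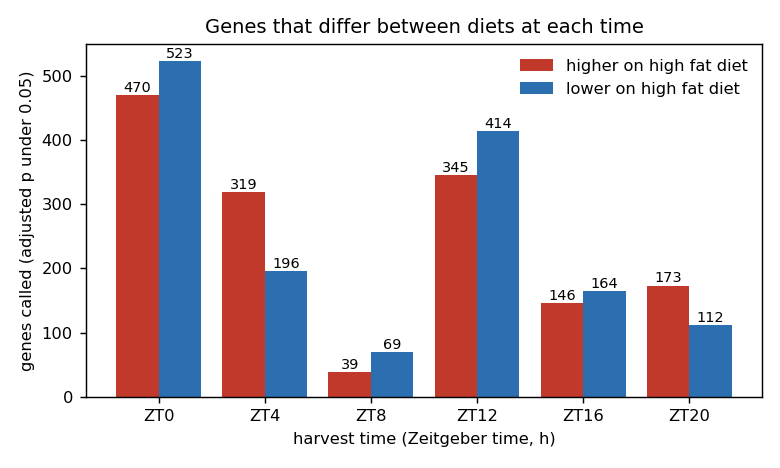
Number of genes that passed (limma, adjusted p under 0.05) at each Zeitgeber time, higher and lower in high fat diet than in chow livers, of 13956 tested. ZT8 has the shortest bars, with 39 higher and 69 lower genes.

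The genes that passed at ZT8 varied in how widely they did so over the day. Of the 108 genes, 87 also passed at another time, 86 of them in the same direction. With the ZT8 sign, 22 passed at 0 other times, 17 at 1, 16 at 2, 20 at 3, 13 at 4 and 20 at all 5, so that 55 passed at 2 or fewer. By sign alone, 78 of the 108 (72.2%) had the ZT8 sign at all 5 other times, against 1989 of all 13956 genes (14.3%). Different times share no arrays. Over all genes the ZT8 differences correlated with those at ZT4 at 0.40, ZT12 at 0.35, ZT20 at 0.31, ZT0 at 0.30 and ZT16 at 0.26, a description across genes, which are not independent. The 20 genes that passed at all 6 times with 1 sign included Cyp2b10, Cyp2c55, Cyp3a44, Cyp3a11, Ces2a, Csad, Slc13a2, Stap1, Apoa4, Fabp2, Gpc1 and Bdh1. Cyp2b10 differed by −3.12 at ZT0, −2.86 at ZT4, −3.12 at ZT8, −2.78 at ZT12, −3.47 at ZT16 and −3.62 at ZT20. Its ZT8 value was thus within the range of the day. The 4 genes that passed with the opposite sign at another time were Srebf1, Elovl3, Zc3h6 and Pm20d2, the last named outside the rule for named genes. Srebf1 fell by 0.49 at ZT0 (adjusted p = 0.0322), rose by 0.59 at ZT4 and rose by 0.69 at ZT8.

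In 21 genes, 5 higher and 16 lower, a difference passed at ZT8 and at no other time. Failing the test at the other times does not show that the ZT8 difference stood apart, and only Ppp1r3b of these 21 also passed in the test of ZT8 against the mean of the other 5 differences. They included Tsc22d3, 9130409I23Rik and Slc25a25. Col27a1, a fibrillar collagen, measured 8.49, 8.64 and 8.48 in high fat diet livers and 7.89, 8.07 and 8.13 in chow livers (0.50 ± 0.10, adjusted p = 0.00623). Scpep1, a serine carboxypeptidase, measured 8.89, 8.83 and 8.98 in high fat diet livers and 9.31, 9.35 and 9.46 in chow livers (−0.48 ± 0.10, adjusted p = 0.0129). Both had groups apart from each other, and both lost the call without high fat diet array 2, Col27a1 also without chow array 1 and Scpep1 without high fat diet array 1 or chow array 2 or 3. Syne3, Ikbkg, Avl9, Pnrc1 and Agfg2 fell by 0.37 to 0.50, and each lost its call without at least 3 of the 6 arrays taken singly. Ikbkg encodes the regulatory subunit of the IκB kinase complex, and Syne3 a protein of the outer nuclear membrane.

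The diet difference at ZT8 departed from the mean of the other 5 in 13 genes (0.0931%), 4 with a higher (0.0287%) and 9 with a lower value at ZT8 (0.0645%), and in 1502 at an unadjusted p under 0.05. The count was 3 without high fat diet array 1, 3 without chow array 2, 6 without high fat diet array 2, 25 without the first chow array of ZT0 and 57 without high fat diet array 3, and with array weights 1990. Elovl3, Insig2 and Mtnr1a passed in every alternative tried.

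Mtnr1a, a melatonin receptor gene, passed as higher on high fat diet at every time but ZT8, where it was also higher on average. It averaged 6.87 ± 0.30 in high fat diet livers and 6.38 ± 0.19 in chow livers at ZT8 (SD, n = 3), a difference of 0.49 (95% interval 0.13 to 0.85) that did not pass (adjusted p = 0.275), although all 3 high fat diet arrays lay above all 3 chow arrays. At the other times its difference lay between 1.41 at ZT0 and 1.97 at ZT20, and the ZT8 difference was lower than their mean by 1.23 (−1.23 ± 0.19, adjusted p = 0.00202). In high fat diet livers its level was 8.19 at ZT0, 8.05 at ZT4, 6.87 at ZT8, 7.67 at ZT12, 7.99 at ZT16 and 8.01 at ZT20, so that ZT8 was its lowest time.

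Insig2, which holds SREBP in the endoplasmic reticulum, averaged 10.58 ± 0.30 in high fat diet livers and 10.69 ± 0.32 in chow livers at ZT8 (SD, n = 3). The groups overlapped, with a difference of −0.11 (adjusted p = 0.852) that ran between −0.37 and 0.07 over the alternatives. It rose at all the other times, by 0.60 at ZT0, 0.53 at ZT4, 1.42 at ZT12, 1.11 at ZT16 and 0.95 at ZT20, and ZT8 departed from their mean by −1.03 ± 0.15 (adjusted p = 0.00159). ZT8 was the lowest time in high fat diet livers and ZT12, at 10.18, the lowest in chow livers.

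Elovl3 had its lowest levels at the same times as Insig2, but unlike Insig2 it was not higher on high fat diet at ZT0 or ZT4. It averaged 10.45 ± 0.18 in high fat diet livers and 11.31 ± 0.31 in chow livers at ZT8, against 11.58 ± 0.15 in high fat diet livers and 10.54 ± 0.06 in chow livers at ZT12 (SD, n = 3). Its diet difference was −0.13 at ZT0, −0.78 at ZT4, −0.85 at ZT8, 1.05 at ZT12, 0.62 at ZT16 and 0.31 at ZT20, so it changed sign between ZT8 and ZT12. The ZT8 value was −1.07 ± 0.16 from the mean of the others (adjusted p = 0.00159) and −1.90 from that at ZT12. From the value at ZT4 it did not depart (−0.07, limma, adjusted p = 0.946). As with Insig2, the lowest level was at ZT8 in high fat diet livers and at ZT12 in chow livers.

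Ppp1r3b was the gene with the highest value in this contrast. Its diet difference was −0.36 at ZT0, 0.53 at ZT4, 1.26 at ZT8, 0.51 at ZT12, 0.02 at ZT16 and 0.29 at ZT20, and ZT8 exceeded the mean of the others by 1.06 ± 0.17 (adjusted p = 0.00270). The differences at ZT4 and ZT12 narrowly missed the threshold (limma, adjusted p = 0.0501 and 0.0509). Set against single times, the ZT8 difference departed from ZT0 (adjusted p = 2.52e-04) and ZT16 (0.00736). It did not depart from ZT4 (0.416), ZT12 (0.203) or ZT20 (0.118). In high fat diet livers the level of Ppp1r3b was 10.62 at ZT0, 10.67 at ZT4, 10.81 at ZT8, 11.21 at ZT12, 11.28 at ZT16 and 11.32 at ZT20. In chow livers it was 10.98, 10.14, 9.55, 10.71, 11.25 and 11.03 at the same times. The dip of the chow livers at ZT8 was thus where the diets were furthest apart. The call against the mean of the other times ended without high fat diet array 1 or without chow array 2.

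**Figure D3:**
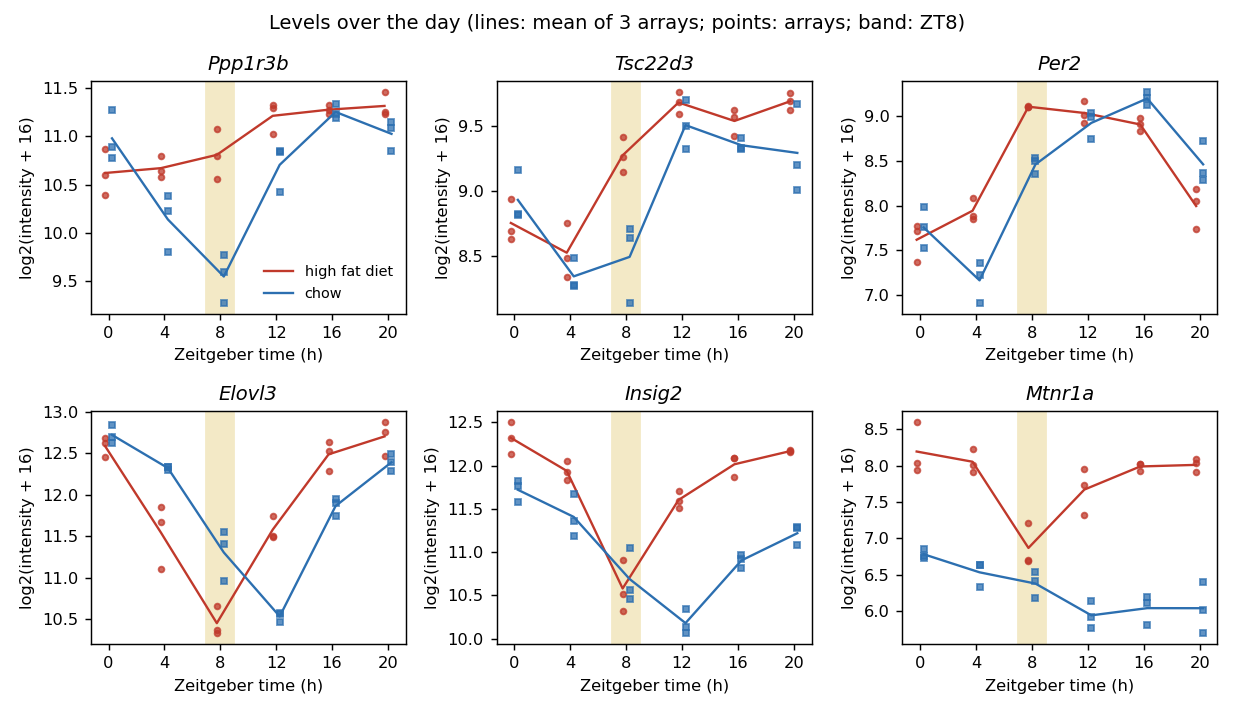
Level of 6 genes over the day as log2(intensity + 16), with lines through the means of 3 arrays and each array as a point, for high fat diet and chow livers. The diets are furthest apart at ZT8 for Ppp1r3b, closest together at ZT8 for Mtnr1a and Insig2, and cross between ZT8 and ZT12 for Elovl3.

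The remaining genes of this contrast had smaller or less steady departures. Arrdc3, an arrestin-like protein, differed by −0.25 at ZT8 (adjusted p = 0.799) and by 0.50 to 2.16 at the other times, a departure of −1.40 ± 0.26 (adjusted p = 0.0212). Srm, spermidine synthase, differed by 0.26 at ZT8 (adjusted p = 0.468) and by −0.57 to −0.24 at the other times (departure 0.66 ± 0.13, adjusted p = 0.0306). Rrp12, a factor of ribosome assembly, differed by 0.27 at ZT8 (adjusted p = 0.135) and by −0.33 to −0.10 elsewhere (departure 0.50 ± 0.09, adjusted p = 0.0128). In these 3 genes the sign at ZT8 was the opposite of that at every other time. The same was true of Atxn1, Trim2 and Sgms1, with departures of 0.75, −0.58 and −0.53. Sgms1 encodes a sphingomyelin synthase and Trim2 a ubiquitin ligase. Hacl1, a peroxisomal enzyme of fatty acid alpha-oxidation, fell by 0.58 ± 0.10 at ZT8 (adjusted p = 0.00224), with 10.69, 10.58 and 10.90 in high fat diet livers and 11.17, 11.36 and 11.37 in chow livers, and departed by −0.54. Zc3h6, a zinc finger protein, fell by 0.63 ± 0.12 at ZT8 (adjusted p = 0.00547), but not without high fat diet array 1, and departed by −0.70. Dyrk1b, a protein kinase, departed by −0.55 (adjusted p = 0.0456). Without high fat diet array 1, and again without chow array 2, none of these 9 genes passed in this contrast, and Hacl1 and Dyrk1b did not pass in 27 and 30 of 53 alternatives.

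Set against single times, the ZT8 difference departed from that at ZT0 in 69 genes (0.494%), from ZT4 in 2 (0.0143%), from ZT12 in 19 (0.136%), from ZT16 in 28 (0.201%) and from ZT20 in 7 (0.0502%). These contrasts share the ZT8 arrays and are not independent. At an unadjusted p under 0.05 the counts were 1837, 1044, 1241, 1360 and 1308. The 2 genes against ZT4 were Atxn1 and Sgms1. Against ZT0 the clock repressor Nr1d1 departed by −2.74, since it rose by 2.00 at ZT0 and differed by −0.74 at ZT8, and Nr1d2 departed by −1.63. Per2 departed by 0.94 from ZT16 and by 1.11 from ZT20, with a diet difference of 0.78 at ZT4 (adjusted p = 4.6e-04) and of 0.65 at ZT8. Elovl3, Insig2, Mtnr1a, Per2 and Rrp12 each departed from 3 of the other times. Over the 5 contrasts 99 genes departed from at least 1 time, 36 without high fat diet array 2, 38 without chow array 2, 44 without high fat diet array 1, 183 without chow array 1 and 307 without high fat diet array 3.

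At all 5 other times 47 genes passed with 1 sign, and 20 of them also passed at ZT8. In the other 27 the ZT8 difference was nearer 0 than the mean of the others, with the same sign in 26, and 17 had an unadjusted p under 0.05 at ZT8. In the 20 that passed at ZT8, 14 differences were nearer 0 than that mean. Missing the threshold at ZT8 was part of how the 27 were picked, which favours a small ZT8 difference, and only Insig2 and Mtnr1a of them departed in the test. Plin2 differed by 0.21 at ZT8 and by a mean of 0.60 at the other times, and Cpt1a by 0.20 and 0.52. Serpinb8, a protease inhibitor, differed by 0.05 and 0.84, and Abcb4, the phospholipid exporter of bile, by 0.10 and 0.42. The complement gene C2 differed by −0.26 and −0.71 and the purine salvage gene Aprt by −0.26 and −0.67.

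By gene list, ZT8 was set beside the other times. Of the 40 PPARA targets, 1 passed at ZT8, against 5 at ZT0, 18 at ZT4, 12 at ZT12, 6 at ZT16 and 5 at ZT20, all higher. Over all genes the share that rose was 0.279% at ZT8, against 3.37% at ZT0, 2.29% at ZT4, 2.47% at ZT12, 1.05% at ZT16 and 1.24% at ZT20. Of the 24 interferon-stimulated genes, 1 rose at ZT8, against 10, 6, 13, 2 and 3 at those times. The 22 CAR and PXR targets had 9 that fell at ZT8, against 8 at ZT0, 7 at ZT4, 11 at ZT12, 6 at ZT16 and 9 at ZT20. Over all genes the share that fell was 0.494% at ZT8, against 3.75% at ZT0, 1.4% at ZT4, 2.97% at ZT12, 1.18% at ZT16 and 0.803% at ZT20. Ribosomal protein genes had a median of −0.05 at ZT8 and of −0.32 to −0.18 at the other times, and ribosome biogenesis genes 0.02 at ZT8 and −0.29 to −0.08 at the other times. Differences between times in these counts and medians were not tested. Lists of insulin and growth hormone signalling (24 genes), bile acid (26), unfolded protein (25), ATF4 (22), heat shock (23), proteasome (31), oxidative phosphorylation (45), acute phase (27) and cell cycle genes (21) had 0 genes that passed at ZT8 in limma, with 0 to 7 each at an unadjusted p under 0.05. The bile acid transporter Slco1a4 came nearest, with 9.13, 8.60 and 9.46 in high fat diet livers and 10.28, 10.31 and 10.07 in chow livers (−1.15 ± 0.29, adjusted p = 0.0504). It passed in 7 of 19 alternatives, among them quantile normalization, median centring and leaving out high fat diet array 3, and 2 bile acid genes fell with quantile normalization.

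**Figure D4:**
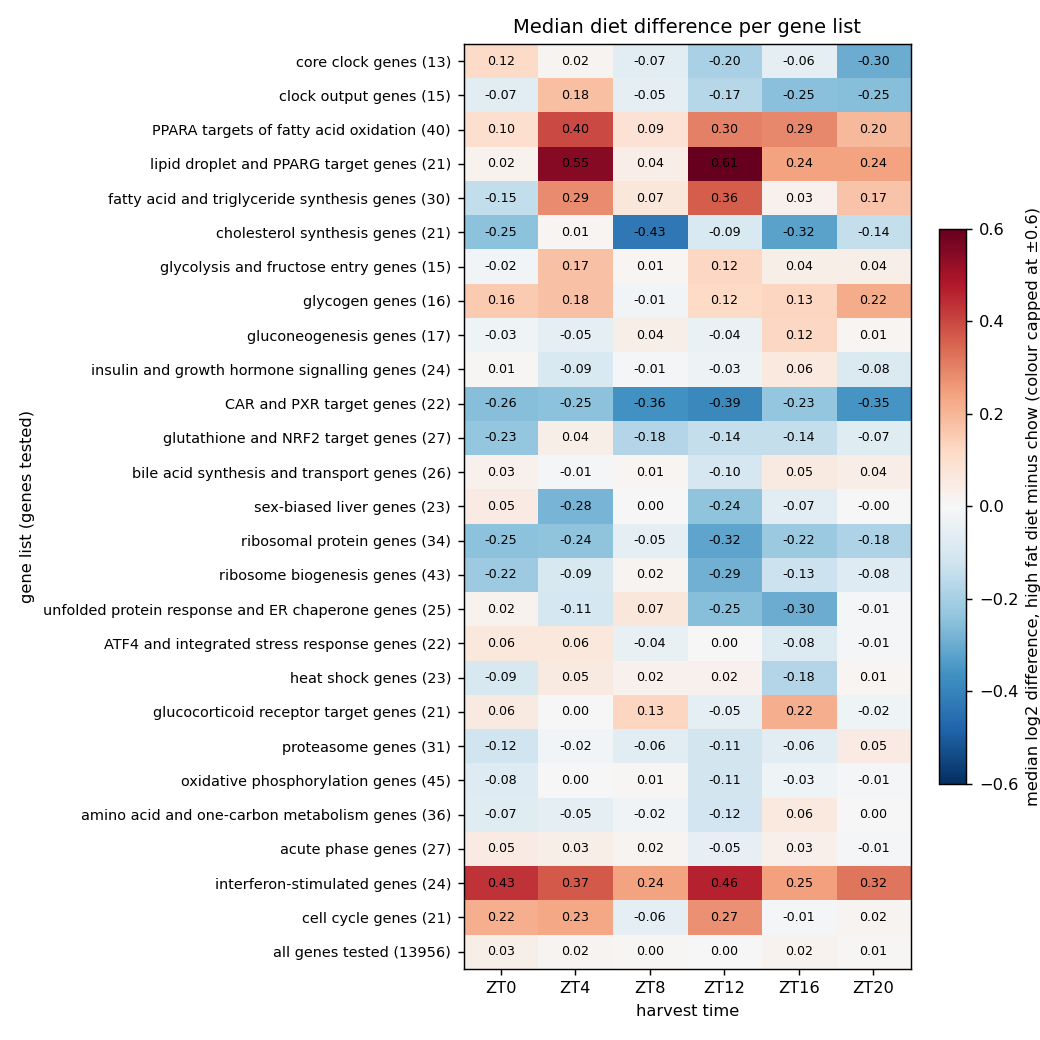
Median diet difference (high fat diet minus chow, log2 scale) of each gene list and of all genes tested at each Zeitgeber time, as colour and number. The marker lists are not shown. At ZT8 the cholesterol synthesis list is at −0.43 and the CAR and PXR list at −0.36, and most other lists shown are near 0.

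**Figure D5:**
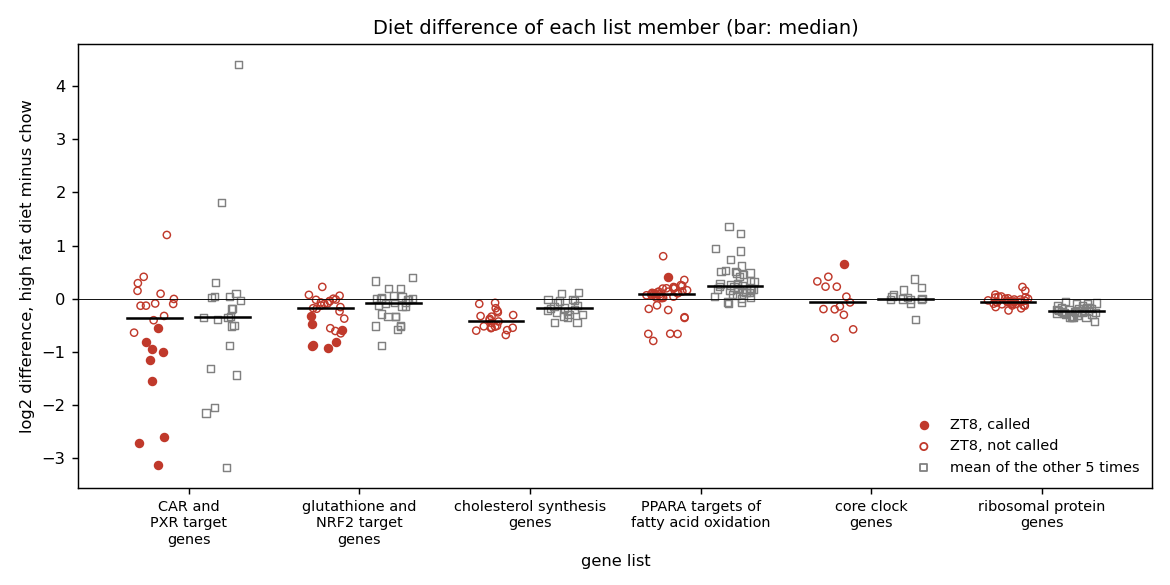
Diet difference of each tested member of 6 gene lists at ZT8 and as the mean of the other 5 times (high fat diet minus chow, log2 scale), 1 point per gene. All 21 cholesterol synthesis genes lie below 0 at ZT8, and CAR and PXR targets reach −3.12.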

How the data were processed

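Liver RNA of 36 samples was measured on Affymetrix gene arrays, and each sample took its diet, time and number from the labels. The authors deposited 35556 probe sets as linear intensity values, made with Affymetrix Expression Console 1.1.1 and PLIER 2.0 per the submitters' processing notes. For background correction and array scaling, no method is given in the sources used here. The number of arrays limits the precision.

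From the deposited intensity values log2(intensity + 16) was computed. The platform annotation gives 1 gene for 21789 probe sets, several for 1621 and none for 12146, which are unnamed here. Symbols were updated by entrez identifier for 99.6%. Each of 19938 genes was represented by its brightest probe set (999 had several), and 13956 genes above the 30th percentile of mean level (6.11) were tested. A limma 3.58.1 fit (R 4.3.3) had 1 mean per diet and time over all 36 arrays, with 24 residual degrees of freedom. Its contrasts were high fat diet minus chow at each time, the ZT8 difference minus the mean of the other 5, and minus each other one. It was tested on simulated data. No 2 arrays of a group held identical values.

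The comparison, the 39 gene lists (726 of 852 symbols tested) and the rule for named genes were chosen with earlier results of these data known, among them that few genes differ at ZT8. The rule named the 15 highest and 15 lowest ZT8 differences that passed, up to 4 passing members per list (2 where none passed), the genes departing from the other times, every core clock gene, 10 genes that passed at ZT8 alone and 8 that passed at all other times alone. Alternatives changed scaling, filter, offset, probe sets, model, threshold and samples. The labels do not state that sample numbers pair animals, so the numbers were not taken as pairs. After each gene's group mean was taken off, same-numbered samples of the diets correlated at −0.11 to 0.26 at ZT8, with 2 of 3 pairs above 0.1.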

Additional observations from a re-analysis of the deposited data

Results flagged for a closer look

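In 13 genes the diet difference at ZT8 differed from the mean difference at the other 5 times by the test of that difference (limma, adjusted p under 0.05). The ZT8 difference was higher than that mean by 1.06 in Ppp1r3b, 0.75 in Atxn1, 0.66 in Srm and 0.50 in Rrp12. It departed by −0.53 in Sgms1, −0.54 in Hacl1, −0.55 in Dyrk1b, −0.58 in Trim2, −0.70 in Zc3h6, −1.03 in Insig2, −1.07 in Elovl3, −1.23 in Mtnr1a and −1.40 in Arrdc3. Ppp1r3b, Hacl1, Zc3h6 and Elovl3 also passed at ZT8 itself, and the other 9 did not.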

How the results depend on the processing

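Of 48 named differences that passed at ZT8, 20 passed in every alternative that tested them (18 or 19) and 28 missed the threshold in at least 1; of the 13 departures from the other times, 3 (Elovl3, Insig2 and Mtnr1a) passed in all 53. No value that passed changed sign; of 145 named values, 9 that did not pass turned sign in an alternative, as did the median of the lipid droplet list with median centring. The 108 genes at ZT8 (39 higher, 69 lower) became 52 (19 and 33) at an adjusted p under 0.01, 63 (36 lower) with a 1.5-fold requirement and 1716 (594 and 1122) with array weights, which also gave ZT8 rank 6 from the fewest; they became 138 (53 and 85) with quantile normalization and 99 (28 and 71, 28.3% higher against 36.1%) with median centring. The 13 departures became 6 with median centring, 20 with the 50th percentile filter, 20 with a trend and robust prior, 4 at 0.01, 8 with 1.5-fold and 1990 with array weights. The 99 genes departing from at least 1 other time became 171 with quantile normalization, 21 at 0.01 and 3182 with array weights. The cause was not tested for these counts; weights at ZT8 ran between 0.52 and 3.41. Leaving out 1 array at a time gave 54 to 107 genes at ZT8 (18 to 35 higher, 35 to 83 lower), 3 to 57 departures from the mean of the other times and 36 to 307 from at least 1 time. With the replicate number as a block, 102 genes passed at ZT8 and 11 departed from the other times. Over all times 5 of 18 same-numbered pairs correlated above 0.1 once each gene's group mean was taken off. The numbers are not stated to pair the samples. With 3 arrays per group a single array decides many calls, and levels near the 30th percentile of 6.11 are close to background, where differences are understated.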
